A study of Mus musculus with 2 samples.

Results

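Immediate early and stress-response genes were followed in a spatial transcriptome of irradiated mouse intestine. They are Fos, Fosb, Jun, Junb, Egr1, Dusp1, Ier2, Ier3, Atf3 and Klf4, taken by symbol. All 10 members were found, each as 1 feature, among 54658 gene symbols. A section labelled Dpf2 knockout was compared with a section labelled wild type. Both came from intestines that had received 10 Gy of X-rays, and neither group has a second section or an unirradiated one. Dpf2 encodes a subunit of the BAF chromatin remodelling complex. The time after irradiation, the age and strain of the mice, the stretch of gut, the deleted part of Dpf2 and the cells in which it was deleted are not known here. The question the design poses is what Dpf2 does in intestinal injury by radiation. With 1 section per genotype no difference can be tested, and a difference between the sections cannot be told apart from one between animals, pieces of gut or libraries.

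Each section was captured on an array of barcoded spots, and a barcode can hold RNA of several cells. The section labelled knockout had 88056 barcodes with 89754886 counts, a median of 932 per barcode. The section labelled wild type had 50970 barcodes with 39824941 counts, a median of 721. Both lists share 45557 barcode names, all at the same array position, so a shared name marks a place on the array and not a cell. Dpf2 had 25.99 CPM (counts scaled to a total of 1000000) in the section labelled knockout and 23.6 CPM in the section labelled wild type, a log2 ratio of 0.14 (0.03 to 0.25), so its level goes against the label. The deleted part is not known, and counts outside it would check nothing. The makeup of the tissue differed. Enterocyte markers summed to 39463 CPM (19 of 20 markers above 0) in the section labelled knockout and 654 CPM (19 of 20) in the section labelled wild type. Neutrophil markers summed to 28.2 CPM in the section labelled knockout and 675 CPM in the section labelled wild type, with all 14 above 0 in both. Paneth markers summed to 6356 CPM in the section labelled knockout and 112645 CPM in the section labelled wild type. Nuclear-retained RNA, a sign of RNA quality, summed to 508 CPM in the section labelled knockout and 257 CPM in the section labelled wild type. Neat1 carried that sum, with 417 CPM in the section labelled knockout and 166 CPM in the section labelled wild type. Malat1 stood at a log2 ratio of 0.28, while Meg3, Kcnq1ot1 and Snhg11 stood at −0.66, −0.52 and −0.76, and the median of the 5 was −0.52. The part of these markers in the results below was not tested.

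Immediate early genes are switched on within minutes of a growth factor, cytokine or stress signal, without new protein synthesis. Their activators already sit in the cell and are often turned on by phosphorylation, for example through MAP kinases. Fos and Jun family proteins pair to form AP-1, which binds DNA and passes the signal to later genes. Other early genes end the signal: Dusp1 encodes a phosphatase that removes phosphate from MAP kinases. Klf4 belongs to the early response in many cells, but in the gut it is also a factor of differentiated epithelial cells, with low levels in dividing crypt cells. Many early transcripts decay fast, so their levels follow a signal closely.

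Over the whole sections, most of the 10 genes were lower in the section labelled knockout. Their counts summed to 678 CPM (95% counting interval 673 to 684; 60875 counts) there, against 2064 CPM (2050.0 to 2078; 82200 counts) in the section labelled wild type, a log2 ratio of −1.61 (−1.62 to −1.59). Every log2 ratio between sections has the one labelled knockout on top, and every interval covers counting error only. At least 2-fold lower were 6 of the 10 members, beside 19.7% of the 14516 genes with 200 or more counts. At least 2-fold higher was 1, Klf4, beside 15.7% of genes. The members' median log2 ratio was −1.38 and that of all genes was −0.18. The members were chosen with earlier results of these data known, so such values beside all genes describe them and test nothing. In such tissue squares, fewer cells of a type and less RNA per cell cannot be told apart.

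Dusp1 and Ier3, which end or modulate the response, had the lowest ratios of the 10 members. Dusp1 (chr17:26505591-26508472), the MAP kinase phosphatase, had 17.8 CPM (1601 counts) in the section labelled knockout, against 519 CPM (20681 counts) in the section labelled wild type. Its log2 ratio was −4.86 (−4.94 to −4.79), which is 29.1-fold lower. Ier3 (chr17:35821713-35822911), a short early protein that tunes survival and ERK signalling, had 15.6 CPM (1397 counts) in the section labelled knockout, against 323 CPM (12875 counts) in the section labelled wild type. Its log2 ratio was −4.38 (−4.46 to −4.30), or 20.8-fold lower. Ier2 (chr8:84661331-84662852), an early nuclear protein, had 51.8 CPM in the section labelled knockout and 128 CPM in the section labelled wild type, at −1.31 (−1.37 to −1.25). Dusp1 and Ier3 were sparse over the section labelled knockout rather than low in 1 corner of it. In squares with a side of 20 position units, Dusp1 had 0 counts in 1132 of 2100 squares labelled knockout, against 2 of 1305 squares labelled wild type. For Ier3 these were 1154 of 2100 squares labelled knockout, against 16 of 1305 labelled wild type.

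Among the AP-1 genes the sizes differed widely. Junb (chr8:84976909-84978748), which forms AP-1 with Fos proteins and often restrains Jun, had 211 CPM (18904 counts) in the section labelled knockout and 577 CPM (22971 counts) in the section labelled wild type, at −1.45 (−1.48 to −1.43). Fos (chr12:85473890-85477274) had 132 CPM in the section labelled knockout and 245 CPM in the section labelled wild type, at −0.89 (−0.93 to −0.85). Its close relative Fosb (chr7:19302696-19310118) had 1.28 CPM (115 counts) in the section labelled knockout and 12.0 CPM (479 counts) in the section labelled wild type, at −3.23 (−3.54 to −2.93). Both Fos genes were thus lower, Fosb by more on the log2 scale. Jun (chr4:95049036-95052222), the partner of Fos, had 57.5 CPM in the section labelled knockout and 54.1 CPM in the section labelled wild type. Its log2 ratio of 0.09 (0.02 to 0.16) lay close to 0 and changed sign with the scaling, to −0.018 when abundant cell type markers were left out of the totals. Atf3 (chr1:191170296-191183333), a stress-induced relative of AP-1 that mostly represses, had 7.77 CPM (697 counts) in the section labelled knockout and 9.82 CPM (391 counts) in the section labelled wild type, at −0.34 (−0.52 to −0.16).

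The 2 zinc finger factors went opposite ways. Egr1, on chromosome 18, a growth factor and stress-induced activator, had 17.7 CPM (1587 counts) in the section labelled knockout and 172 CPM (6836 counts) in the section labelled wild type. Its log2 ratio was −3.28 (−3.36 to −3.20), or 9.71-fold lower. Klf4 (chr4:55527137-55532475) had 166 CPM (14875 counts) in the section labelled knockout and 23.9 CPM (952 counts) in the section labelled wild type, at 2.79 (2.70 to 2.89), or 6.93-fold higher. Klf4 was the sole member above 1 on the log2 scale.

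Position within a section gave the spread. When each section was split into 4 parts, the parts of 8 members did not overlap between the sections, all but Jun and Atf3. This is little guide to the members, because the parts of 42.8% of all genes lay below and those of 31.5% above in the section labelled knockout. Tiles of 100 by 100 position units, 92 in the section labelled knockout and 65 in the section labelled wild type, set a harder mark: all tiles of 1.11% of genes lay below, and 4.17% above. Of the members, 4 had all tiles below. Dusp1 tiles ran from 0 through a median of 16.1 to 61.2 CPM in the section labelled knockout, against 245, 541 and 769 CPM in the section labelled wild type. Ier3 tiles ran from 4.18 through 14.9 to 30.5 CPM in the section labelled knockout, against 74.3, 328 and 526 CPM in the section labelled wild type. Egr1 tiles ran from 6.19 through 15.5 to 48.2 CPM in the section labelled knockout, against 80.8, 171 and 399 CPM in the section labelled wild type. The highest tile labelled knockout therefore stayed under the lowest labelled wild type for these 3 genes, and Ier2 was the other one, with 77.2 CPM against 81.6 CPM at that edge. Klf4 tiles overlapped, from 38.3 through 155 to 434 CPM in the section labelled knockout against 4.97, 20.01 and 81.1 CPM in the section labelled wild type.

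**Figure D1:**
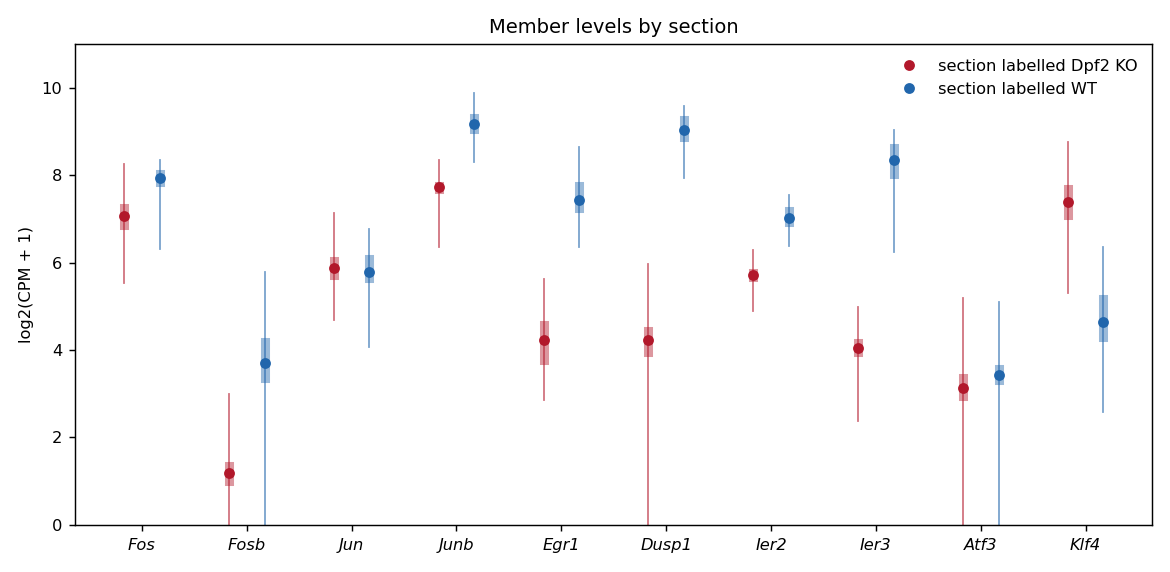
Level of each of the 10 genes as log2(CPM + 1), section labelled knockout left of section labelled wild type, with points for whole sections, thick bars for the range over 4 parts and thin lines for the range over tiles of 100 position units. Dusp1 tiles reach 61.2 CPM at most in the section labelled knockout and 245 CPM at least in the section labelled wild type, while the ranges of Jun overlap and Klf4 is higher in the section labelled knockout.

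Promoters of the members are shown because their genes differed in direction. The RefSeq table of the mouse build GRCm38.p6 gave the 250 bases before the start of 8 members, all but Egr1 and Ier2. Capitals mark TGACG or its reverse complement CGTCA, the core of the site bound by CREB and ATF proteins, its full palindrome TGACGTCA, and the TATA box letters TATAAA. The strand of each gene is written after its window. The 5 shown are Dusp1 and Ier3 with the lowest ratios, Fos and Junb as AP-1 genes, and Klf4 with the opposite direction.
Dusp1, chr17:26508473-26508722, minus strand: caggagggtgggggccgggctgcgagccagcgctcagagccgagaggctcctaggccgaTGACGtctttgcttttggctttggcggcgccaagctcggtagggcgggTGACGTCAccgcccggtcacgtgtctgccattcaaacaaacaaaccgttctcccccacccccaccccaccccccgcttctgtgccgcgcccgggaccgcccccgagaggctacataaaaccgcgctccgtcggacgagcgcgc
Ier3, chr17:35821463-35821712, plus strand: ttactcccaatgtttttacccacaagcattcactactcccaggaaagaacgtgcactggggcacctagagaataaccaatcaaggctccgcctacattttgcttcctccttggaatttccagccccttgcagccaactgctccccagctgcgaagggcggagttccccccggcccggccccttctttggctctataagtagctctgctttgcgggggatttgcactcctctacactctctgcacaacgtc
Fos, chr12:85473640-85473889, plus strand: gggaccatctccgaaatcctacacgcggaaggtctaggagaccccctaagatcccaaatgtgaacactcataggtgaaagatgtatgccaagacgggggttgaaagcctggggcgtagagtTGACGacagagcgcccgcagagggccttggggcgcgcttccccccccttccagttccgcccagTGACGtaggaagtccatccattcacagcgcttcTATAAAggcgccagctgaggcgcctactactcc
Junb, chr8:84978749-84978998, minus strand: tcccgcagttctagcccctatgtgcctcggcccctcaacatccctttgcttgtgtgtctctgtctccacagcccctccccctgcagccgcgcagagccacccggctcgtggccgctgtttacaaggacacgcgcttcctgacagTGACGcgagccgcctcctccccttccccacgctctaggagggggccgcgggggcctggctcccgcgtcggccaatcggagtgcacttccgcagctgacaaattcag
Klf4, chr4:55532476-55532725, minus strand: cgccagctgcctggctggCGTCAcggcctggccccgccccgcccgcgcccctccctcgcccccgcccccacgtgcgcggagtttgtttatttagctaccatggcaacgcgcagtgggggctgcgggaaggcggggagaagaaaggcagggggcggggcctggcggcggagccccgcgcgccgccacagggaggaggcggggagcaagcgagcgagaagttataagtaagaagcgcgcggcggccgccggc

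Both strands were searched for fixed letters, and TGACGTCA holds TGACG on each strand. TGACG occurred in 6 of the 8 windows (Fos, Fosb, Junb, Dusp1, Atf3 and Klf4), beside 17.8% of the 32851 RefSeq windows. The full TGACGTCA occurred in Dusp1 alone among the members, beside 1.55% of windows, with its first base at position −143 from the start. TATAAA occurred in Fos, at −33, beside 12.4% of windows. The AP-1 site TGANTCA, held by 6.75% of windows, and the CArG box bound by SRF, held by 1.47%, matched no member window, which says only that these letters are not in these 250 bases. The Sp1-like GGGCGG occurred in 7 members, beside 32.7%, and CCAAT in 3 (Jun, Junb and Ier3), beside 33.8%. The letters did not divide the members by direction: TGACG stood before Dusp1, which was lower in the section labelled knockout, and before Klf4, which was higher. Ier3, also lower, had none.

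Within the section labelled knockout the members followed the villus. Squares were ranked by their share of marker counts, and the top 10% by each list, 210 squares, were compared with all other squares. The highest sum of the 10 members was in squares rich in villus tip markers, at 1252 CPM against 611 CPM in the other squares, a log2 ratio of 1.03 (1.006 to 1.06). The lowest was in squares rich in stem cell markers, at 449.9 CPM against 702 CPM, a log2 ratio of −0.64 (−0.69 to −0.59). In villus tip squares 6 members were at least 2-fold higher than in other squares, beside 1.74% of the 13136 genes counted there. Of the 6, Fosb had too few counts to be among those genes. The villus tip squares shared 66.2% of their number with the pan-epithelial-rich and 61.9% with the enterocyte-rich squares, so these are overlapping views of 1 tissue.

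The steepest of these was Atf3, with 28.8 CPM (265 counts) in villus tip squares against 5.13 CPM in other squares, a log2 ratio of 2.49 (2.26 to 2.71). Klf4 had 392 CPM in villus tip squares and 139 CPM in other squares, at 1.495 (1.44 to 1.55). Jun had 123 CPM in villus tip squares and 49.7 CPM in other squares, at 1.31 (1.21 to 1.40). The AP-1 subunit Fos followed at 1.09 (1.02 to 1.15), from 252 CPM in villus tip squares and 118 CPM in other squares. Junb, at 0.73, was less than 2-fold higher. Egr1 had 23.2 CPM in villus tip squares and 16.9 CPM in other squares, at 0.45 (0.24 to 0.66). Dusp1 had 32.7 CPM in villus tip squares and 16.1 CPM in other squares, at 1.03 (0.84 to 1.21). Fosb rested on 26 counts in villus tip squares, at 1.36 (0.67 to 2.01). Ier3 was the exception, with 11.4 CPM in villus tip squares and 16.1 CPM in other squares, at −0.49 (−0.79 to −0.21).

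Ordered by enterocyte markers, from the decile of squares with the lowest share to the decile with the highest, Klf4 had 53.1 CPM in the lowest and 322 CPM in the highest. Fos had 76.5 CPM in the lowest decile and 209 CPM in the highest, Jun 40.5 and 95.6 CPM, and Atf3 3.06 and 17.2 CPM. These genes were higher where the enterocyte share was highest. Egr1 had 33.9 CPM in the lowest decile and 15.3 CPM in the highest, although it was higher in villus tip squares and, at 0.34, in pan-epithelial squares. Ier3 had 21.2 CPM in the lowest decile and 10.9 CPM in the highest. Dusp1, at 19.2 CPM in the lowest decile and 20.2 CPM in the highest, had close to the same level at both ends.

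The muscle and stroma of the section labelled knockout held another pattern, and crypt squares held part of it. Egr1, Ier3 and Dusp1 were higher in muscle and stroma than in other squares. Of these, Egr1 and Dusp1 were also higher in villus tip squares, and Ier3 alone was lower there. In squares rich in smooth muscle markers Egr1 had 34.6 CPM against 15.6 CPM in other squares, a log2 ratio of 1.15 (0.97 to 1.33). Ier3 had 26.6 CPM in smooth muscle squares and 14.3 CPM in other squares, at 0.89 (0.68 to 1.09), and Dusp1 had 24.3 and 17.03 CPM, at 0.51 (0.30 to 0.72). Klf4 was lower there, with 73.6 CPM in smooth muscle squares and 176 CPM in other squares, at −1.26 (−1.37 to −1.15). Atf3 had 3.72 CPM (34 counts) in smooth muscle squares and 8.01 CPM in other squares, at −1.11 (−1.65 to −0.61). At the 2-fold mark this made 1 member higher, beside 10.8% of genes, and 2 lower, beside 1.55%. Squares rich in fibroblast and collagen markers, which shared 50.5% of their number with smooth muscle squares, again had 1 member higher (12.3% of genes) and 2 lower (1.51%). Egr1 had 39.4 CPM in collagen squares against 15.0 CPM in other squares, at 1.39 (1.22 to 1.56). Of the smooth muscle squares, 40.5% were also rich in stem cell markers and 9.05% in proliferating markers. Stem cell squares had 67.1 CPM of Klf4, 3.87 CPM of Atf3 and 28.8 CPM of Egr1. Proliferating squares had 71.9, 3.24 and 25.0 CPM of these genes, so low Klf4 and Atf3 were not particular to muscle and stroma.

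**Figure D2:**
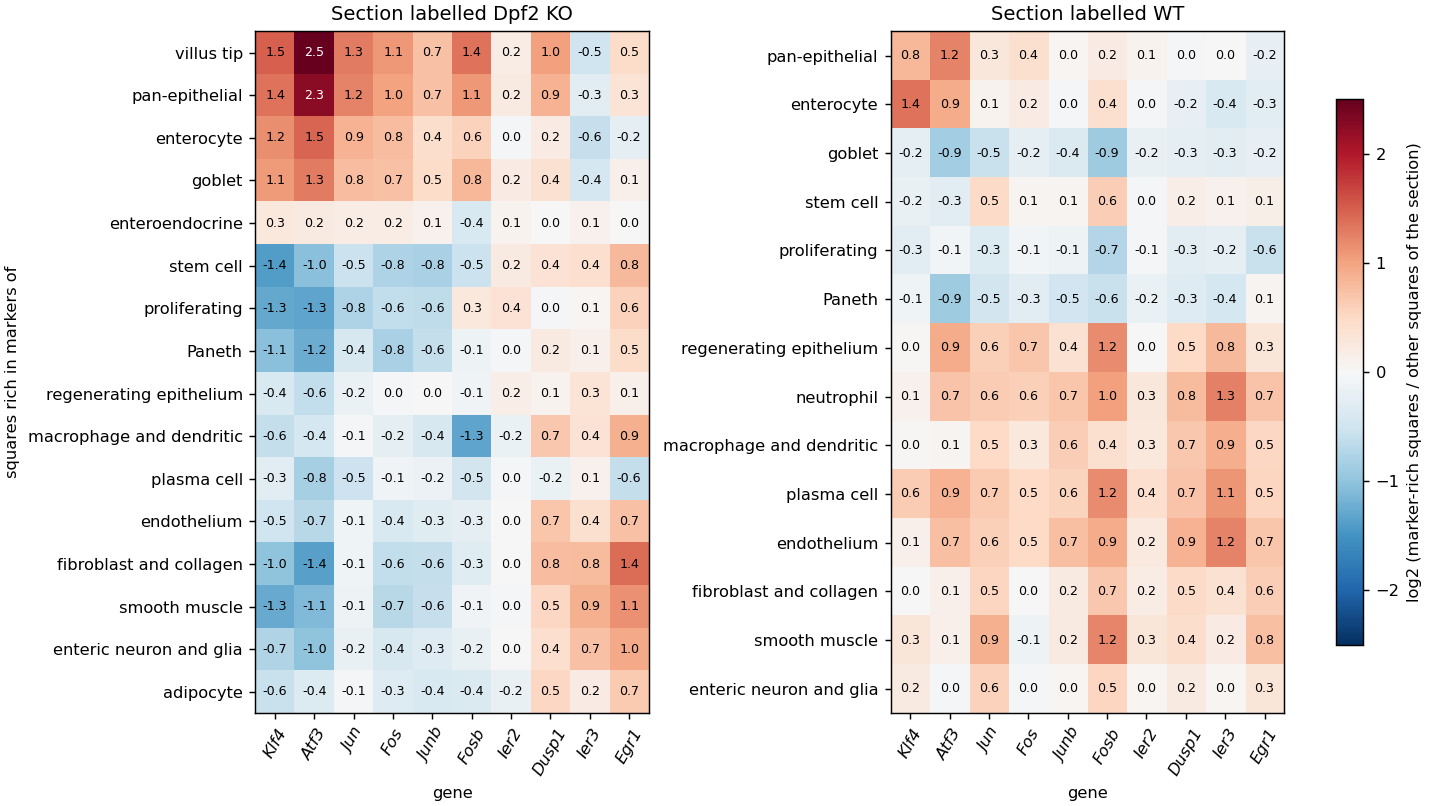
Log2 ratio of each gene in squares rich in a marker list over all other squares of the same section, with genes and marker lists on the axes and the section labelled knockout left of the section labelled wild type. In the section labelled knockout Klf4 and Atf3 reach 1.495 and 2.49 in villus tip squares, and in the section labelled wild type Ier3 reaches 1.27 in neutrophil squares.

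In wild-type-labelled squares rich in villus tip markers, whose median of 19 marker counts fell just under the minimum of 20, all 10 members were higher than in other squares. Their sum there was 2365 CPM against 2029 CPM, a log2 ratio of 0.22 (0.19 to 0.25). Among the 14 lists that passed the minimum, the highest sum was in squares rich in endothelial markers, at 3451 CPM against 1981 CPM in other squares, a log2 ratio of 0.80 (0.77 to 0.84). Squares rich in neutrophil markers came next, at 3367 CPM against 1961 CPM, or 0.78 (0.75 to 0.81), and plasma cell squares had 3171 CPM against 1969.9 CPM, or 0.69 (0.66 to 0.72). This order rests on the minimum, which was lowered after levels were seen. Endothelial squares had a median of 22 marker counts and neutrophil squares 38, and both passed only the lowered minimum. Of the lists above the earlier minimum, plasma cell squares, with a median of 323, had the highest sum. Adipocyte squares, with a median of 9, were left out and had 3473 CPM. The lowest sum was in Paneth-rich squares, at 1683 CPM against 2127 CPM, or −0.34 (−0.37 to −0.31). Paneth markers made up 239656 CPM of those squares, and with them left out of the totals the value was −0.078 and that of proliferating squares, −0.30, was the lowest. Each list took 131 squares, and neutrophil squares shared 38.9% of their number with endothelial and 42.7% with plasma cell squares. All 10 members were higher in neutrophil squares than elsewhere. The same held in endothelial, plasma cell, macrophage and dendritic, regenerating epithelium and collagen squares. The share of all genes that were higher in such squares, or in villus tip squares, is not given here. At least 2-fold higher were 2 members in neutrophil squares, beside 1.69% of 11643 genes, and 2 in plasma cell squares, beside 1.84%. In endothelial squares it was 1, beside 2.35% of genes.

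Ier3 led in neutrophil squares, with 706 CPM (1938 counts) against 294 CPM in other squares, a log2 ratio of 1.27 (1.20 to 1.34). Fosb was the other member past 2-fold, with 22.6 CPM (62 counts) against 11.1 CPM, at 1.03 (0.62 to 1.41). Dusp1 had 849 CPM in neutrophil squares against 492 CPM in other squares, at 0.79 (0.72 to 0.85), and Egr1 had 268 CPM against 164 CPM, at 0.71 (0.60 to 0.82). Junb had 890.0 CPM in neutrophil squares against 553 CPM in other squares, at 0.69 (0.63 to 0.75). Klf4 hardly differed, with 25.5 CPM against 23.8 CPM, at 0.10 (−0.27 to 0.46). Depth ran with these values: neutrophil squares had a median of 596 counts per barcode, against 748 in other squares. Over the 232 squares of 50 position units in the section labelled wild type, the summed level and the counts per barcode had a Spearman correlation of −0.47, both taken from the same library. Among squares at or above the median depth, neutrophil squares had 2703 CPM against 1770.3 CPM, a log2 ratio of 0.61, with Ier3 at 0.99. Endothelial squares had a median of 518 counts per barcode, against 761 in other squares. Their sum stood at 0.66 among the deeper squares.

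Ordered by neutrophil markers, the deciles of the section labelled wild type ran from 215 CPM of Ier3 in the lowest to 708 CPM in the highest. Dusp1 had 398 CPM in the lowest decile and 851 CPM in the highest, and Egr1 had 149.9 and 269 CPM. All 3 genes were higher where the neutrophil marker share was highest. The neutrophil list fell under the minimum in the section labelled knockout, with a median of 4 marker counts.

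**Figure D3:**
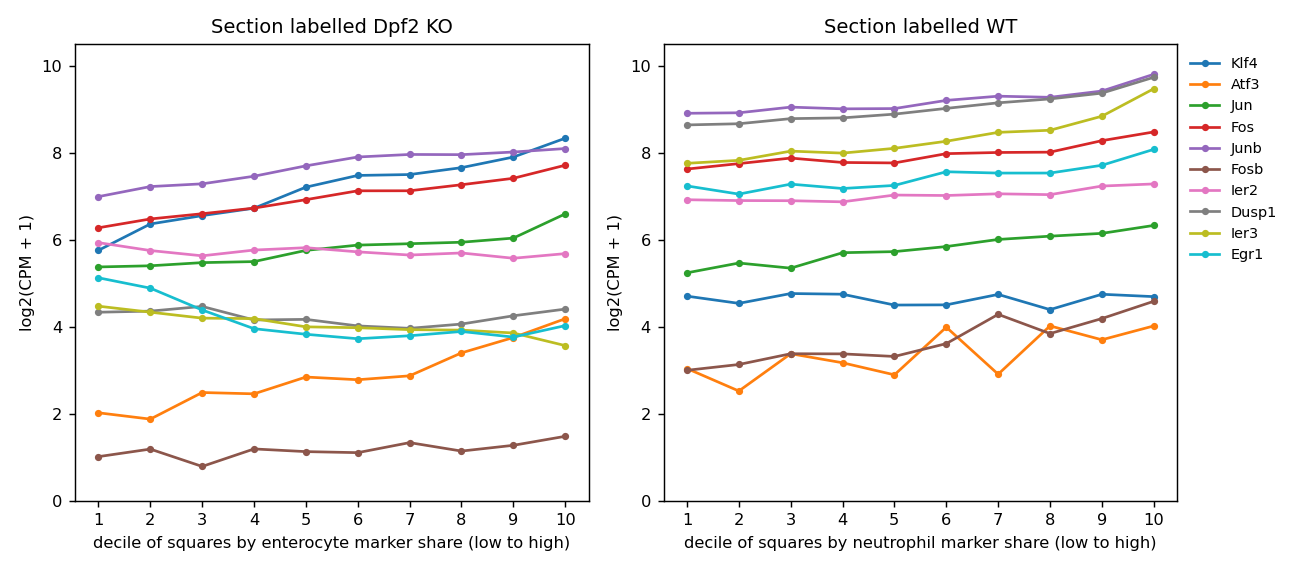
Level of the genes as log2(CPM + 1) in deciles of squares, ordered from the lowest to the highest marker share, for enterocyte markers in the section labelled knockout and neutrophil markers in the section labelled wild type. Klf4 reaches 322 CPM in the highest enterocyte decile of the section labelled knockout, and Ier3 reaches 708 CPM in the highest neutrophil decile of the section labelled wild type.

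Squares rich in regenerating epithelium markers of the section labelled wild type also held more of the response, at 2828 CPM against 1991 CPM in other squares, a log2 ratio of 0.51 (0.47 to 0.54). Fosb had 24.6 CPM (78 counts) there against 10.8 CPM, at 1.19 (0.82 to 1.54), and was the 1 member past 2-fold, beside 1.21% of genes. Fos had 374 CPM in regenerating squares against 233 CPM in other squares, at 0.68 (0.60 to 0.77). Ier3 had 532 CPM in regenerating squares against 304 CPM in other squares, at 0.81 (0.73 to 0.88). Smooth muscle squares had more Jun, with 92.8 CPM against 50.3 CPM in other squares, at 0.88 (0.71 to 1.05). Egr1 had 273 CPM in smooth muscle squares against 161 CPM in other squares, at 0.76 (0.66 to 0.86). Egr1 was thus higher in muscle-rich squares of both sections.

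Klf4 and Atf3 were higher in enterocyte-rich squares of the section labelled wild type too, although enterocyte markers were scarce there. Klf4 had 52.7 CPM (215 counts) in enterocyte squares against 20.6 CPM in other squares, at 1.36 (1.13 to 1.58), and was the 1 member past 2-fold, beside 1.18% of genes. Atf3 had 16.7 CPM (68 counts) in enterocyte squares against 8.73 CPM in other squares, at 0.93 (0.53 to 1.32). These squares held 3275 CPM of enterocyte markers, against 69810 CPM in the enterocyte squares of the section labelled knockout. The sum of the members in them was 1957 CPM against 2070.0 CPM in other squares, at −0.08 (−0.11 to −0.05).

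**Figure D4:**
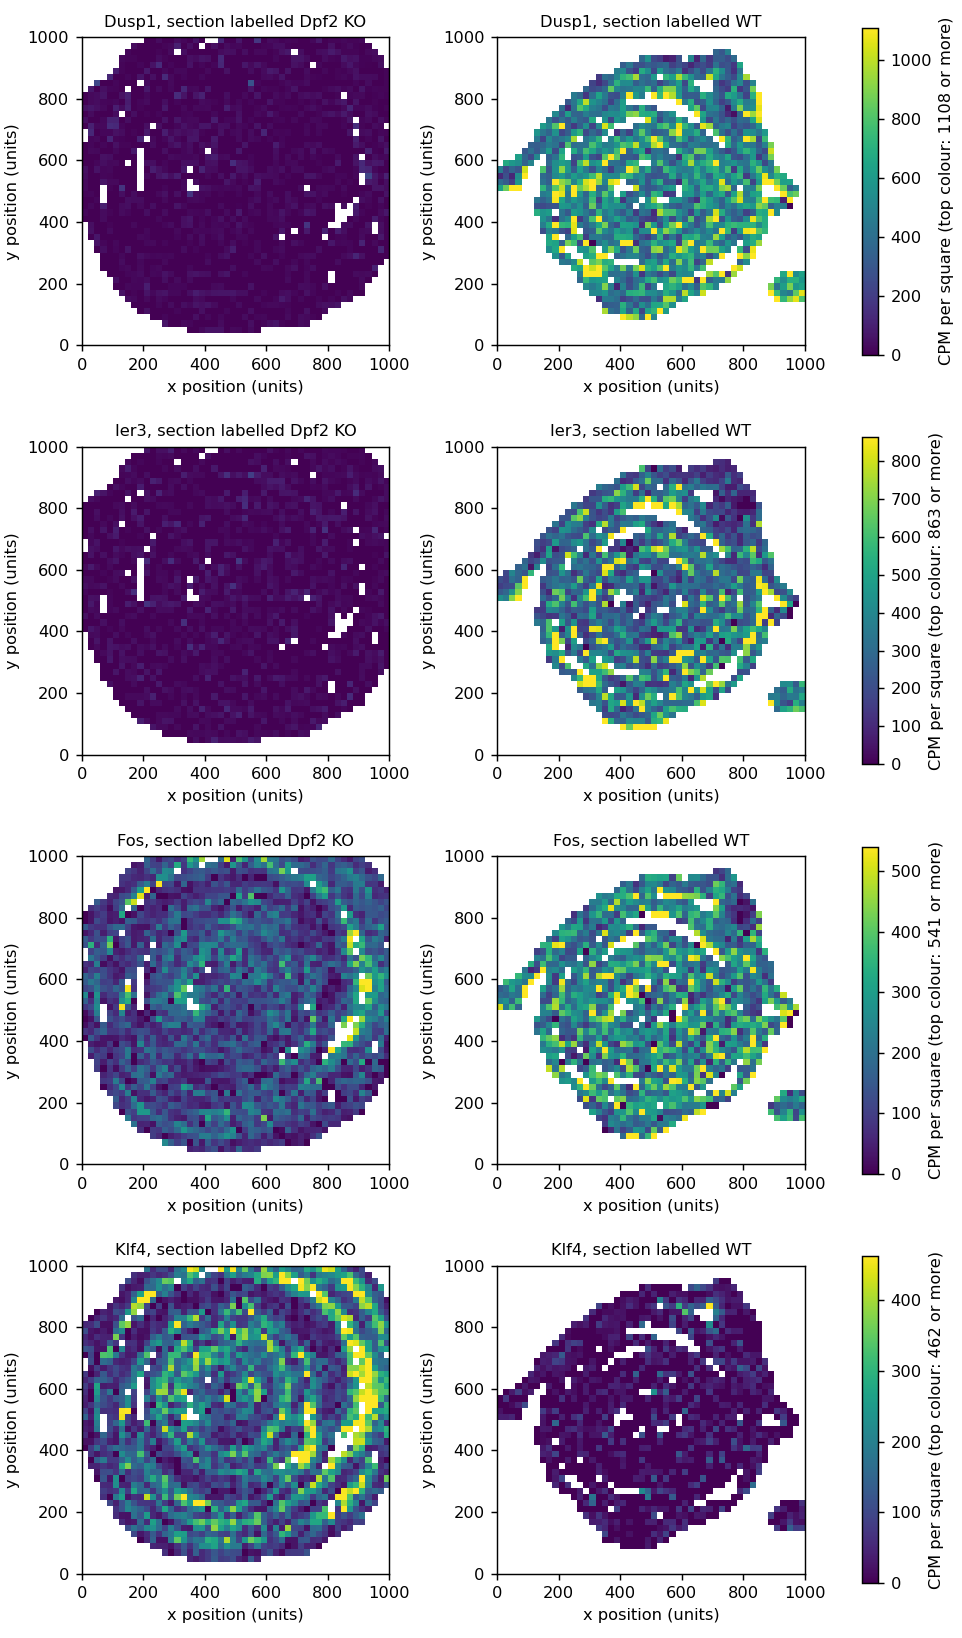
Maps of the squares of both sections by position, section labelled knockout left of section labelled wild type, coloured by the level of Dusp1, Ier3, Fos and Klf4 in CPM, with 1 colour scale per gene. Dusp1 and Ier3 are low over the whole section labelled knockout, with Dusp1 at 0 in 1132 of its 2100 squares. Klf4 and Fos are higher in bands of that section than in the rest of it. Over the whole sections Fos is lower in the one labelled knockout, at 132 CPM against 245 CPM, and Klf4 is higher.

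Comparing the sections within squares chosen by the same marker list kept most directions. In 13 compartments both sections held enough marker counts. Dusp1 had log2 ratios from −5.67 to −4.08 over them, Ier3 from −5.26 to −3.76, and Egr1 from −4.31 to −2.27. Fosb ran from −4.82 to −1.72, Junb from −2.43 to −0.74, Ier2 from −1.70 to −0.93, and Fos from −1.71 to −0.06. These 7 genes had a lower level labelled knockout than labelled wild type in all 13 compartments, and Klf4, from 1.35 to 3.91, was higher in all 13. Jun was lower in 9 and higher in 4, and Atf3 lower in 10 and higher in 3. The share of all genes that keep 1 sign in all 13 is not given here. These counts therefore cannot be called unusual. The compartments share squares and are not 13 independent comparisons. Each section gave its own top 10% of squares, so squares of 1 list need not be alike between the sections. An enterocyte threshold common to both was passed by 341 squares labelled knockout and 0 labelled wild type. Paneth and regenerating epithelium thresholds were each passed by 0 squares labelled knockout and 341 labelled wild type.

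Smooth muscle squares also held epithelial RNA. Enterocyte markers summed to 20377 CPM in those of the section labelled knockout and 214 CPM in those of the section labelled wild type. Paneth markers summed to 12722 CPM in those of the section labelled knockout and 144346 CPM in those of the section labelled wild type. Of these squares, 37.1% in the section labelled knockout and 19.1% in the section labelled wild type were also Paneth-rich, and the part of these markers in the values was not tested. Dusp1 had 24.3 CPM (222 counts) there in the section labelled knockout, against 679 CPM (2370 counts) in the section labelled wild type, a log2 ratio of −4.81 (−5.01 to −4.61). Ier3 had 26.6 CPM in the section labelled knockout against 367 CPM in the section labelled wild type, at −3.79 (−3.99 to −3.59). Jun, close to level over the whole sections, had 52.6 CPM in the section labelled knockout and 92.8 CPM in the section labelled wild type here, at −0.82 (−1.03 to −0.61). Of the members, 8 were at least 2-fold lower, beside 6.32% of 8135 genes, and 1 was higher, beside 22.3%. Their sum had a log2 ratio of −2.33 (−2.39 to −2.28) there and −2.28 in collagen squares, where the counts were again 8 lower (6.57% of genes) and 1 higher (21.5%). Those shares are of genes with 200 or more counts over the compared squares of both sections. Fosb and Atf3, among the 8 in both kinds of squares, had fewer. The median of the members in smooth muscle squares was −1.89, and that of all genes 0.34. A smooth muscle threshold common to both sections was passed by 318 squares labelled knockout and 23 labelled wild type.

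The sum of the members differed least in pan-epithelial, enterocyte and goblet squares, at −0.83, −0.95 and −0.78. Klf4, which went the other way, is part of these sums. In pan-epithelial squares it had 365 CPM in the section labelled knockout and 39.6 CPM in the section labelled wild type. Squares rich in stem cell, regenerating epithelium, proliferating and Paneth markers stood at −2.29, −2.14, −1.96 and −1.85. In pan-epithelial-rich squares the sum was 1206 CPM in the section labelled knockout and 2151 CPM in the section labelled wild type, at −0.83 (−0.88 to −0.79). There 5 members were at least 2-fold lower, beside 28.9% of genes, and 1 higher, beside 16.5%. Fosb, 1 of the 5, had fewer than the 200 counts that the genes of those shares had. Fos had 242 CPM in the section labelled knockout and 312 CPM in the section labelled wild type, at −0.37 (−0.47 to −0.26). Jun was higher, with 119 CPM in the section labelled knockout and 64.5 CPM in the section labelled wild type, at 0.88 (0.68 to 1.08). Dusp1 had 29.9 CPM in the section labelled knockout against 506 CPM in the section labelled wild type, at −4.08 (−4.27 to −3.90). In goblet-rich squares 4 members were at least 2-fold lower, beside 17.4% of genes, and 3 higher, beside 27.1%: Jun at 1.23, Atf3 at 1.52 and Klf4 at 3.91. Fosb, among the 4, and Atf3, among the 3, had fewer than 200 counts in goblet squares. Marker levels in these squares were not alike: a pan-epithelial threshold common to both sections was passed by 328 squares labelled knockout and 13 labelled wild type.

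**Figure D5:**
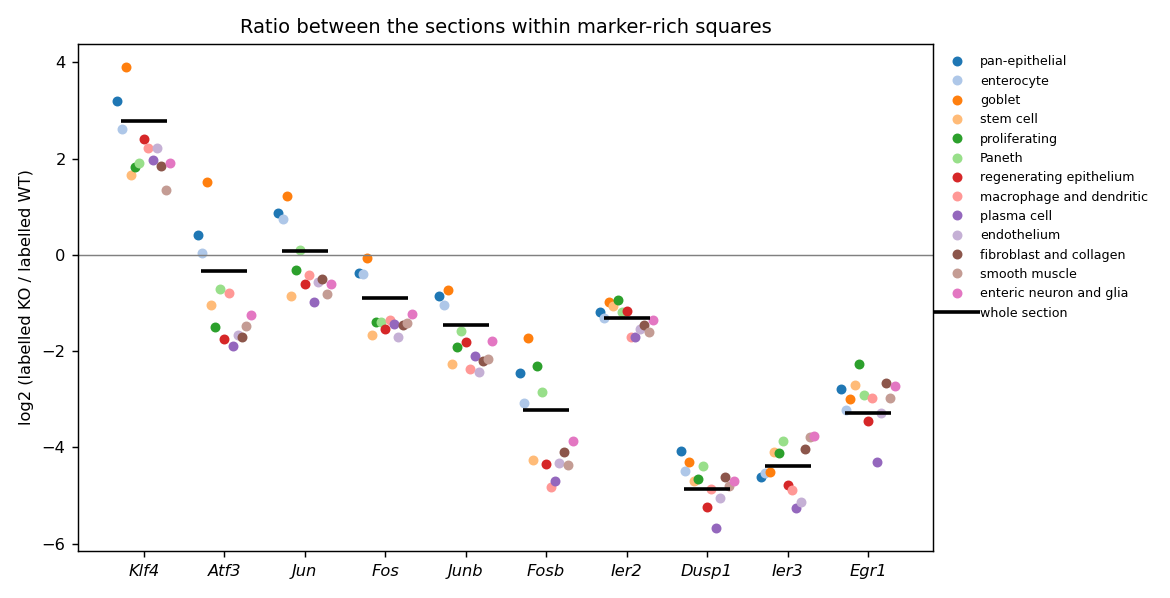
Log2 ratio between the sections, labelled knockout on top, for each gene, in each of the 13 compartments both hold and over the whole sections. Dusp1, Ier3 and Egr1 stay below −2 in all of them, Jun runs from −0.99 to 1.23, and Klf4 stays above 1.

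The members varied together in different sets. Over 348 squares of 50 position units in the section labelled knockout, Klf4 had Spearman correlations of 0.76 with Junb, 0.74 with Fos and 0.67 with Jun. Egr1 and Ier3 had −0.11 and −0.15 with Klf4 there, and Dusp1 with Ier3 had −0.01, but these genes were sparse in those squares. Over 232 squares of the section labelled wild type, Dusp1 had 0.66 with Ier3, 0.63 with Junb and 0.54 with Egr1. Klf4 had −0.09 with Junb and 0.10 with Fos there, but it too was sparse in that section. It had 952 counts and stood at 0 in 732 of 1305 squares of 20 position units. How far sparsity set these correlations was not tested. The points share a library, its depth and their neighbours, so these are descriptions.

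The genes with patterns most like the sum of the members also differed, but the sum was made up differently in each section. Klf4 gave 24.4% of the member counts in the section labelled knockout and 1.16% in the section labelled wild type. Dusp1 gave 2.63% and 25.2%, Ier3 2.29% and 15.7%, and Junb 31.1% and 27.9%. Among 8564 genes of the section labelled knockout the genes most like the sum were Clca4a with a Spearman correlation of 0.91, Enpp3 and Ada with 0.90, and Apob and Dusp6 with 0.89, over 348 squares. Ada, the adenosine deaminase of the villus tip, and Enpp3 belong to the villus tip list used above, and Apob carries dietary fat. Among 5743 genes of the section labelled wild type they were Adamts1 with 0.71, Cebpb with 0.69, Ptgs2 with 0.68, and Abi1 and Mt1 with 0.66, over 232 squares. Ptgs2 makes prostaglandins, Cebpb is an inflammation-induced transcription factor, and Mt1 is a metal-binding stress protein.

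Other early genes were counted by lists, each read beside the 19.7% of all genes that were at least 2-fold lower and the 15.7% that were at least 2-fold higher. These lists, too, were chosen with earlier results of these data known. Of 20 further AP-1 and ATF subunits, 5 had a log2 ratio of −1 or less and 2 had 1 or more, counts close to those background shares, with a median log2 ratio of −0.40. Fosl1, another Fos-type partner of Jun, had 1.16 CPM (104 counts) in the section labelled knockout, against 41.0 CPM (1634 counts) in the section labelled wild type, at −5.15 (−5.45 to −4.86). Its relative Fosl2 had 135 CPM in the section labelled knockout and 178 CPM in the section labelled wild type, at −0.40 (−0.44 to −0.36). Jdp2, a repressor of AP-1, stood at −2.85, and Crem, whose short form represses cAMP responses, at −2.01. Maf had the largest ratio of the list, with 149.9 CPM in the section labelled knockout and 12.7 CPM in the section labelled wild type, at 3.57 (3.44 to 3.70), and Batf2 stood at 1.52. Atf4, the translation-controlled stress factor, was near level at −0.13.

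Of 23 other early transcription factors, 11 were at least 2-fold lower and 1 higher, with a median of −0.99. Nr4a1, an orphan nuclear receptor of the early response, had 6.95 CPM (624 counts) in the section labelled knockout, against 177 CPM (7065 counts) in the section labelled wild type, at −4.67 (−4.79 to −4.56). Nfil3 stood at −4.33 and Csrnp1 at −4.28. The crypt factor Klf5, with 559.9 CPM in the section labelled knockout and 557 CPM in the section labelled wild type, was level at 0.0078, a sign that turns with the scaling. Srf, which drives many early genes, stood at 0.60 and the clock gene Per2 at 1.04.

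Feedback genes were mixed by gene rather than uniform. Of 18 further MAP kinase phosphatases and inhibitors, 9 were at least 2-fold lower and 1 higher, with a median of −1.06. Dusp2, a nuclear phosphatase of immune cells, had 0.379 CPM (34 counts) in the section labelled knockout, against 20.5 CPM (816 counts) in the section labelled wild type, at −5.76 (−6.30 to −5.26). The ERK phosphatase Dusp6 was the 1 higher, with 367 CPM in the section labelled knockout and 108 CPM in the section labelled wild type, at 1.76 (1.72 to 1.81). Spry4, an inhibitor of receptor signalling, stood at −3.36. Of 26 genes of mRNA decay and other feedback, 16 were at least 2-fold lower and 1 higher, with a median of −1.50. Zfp36, which speeds the decay of inflammatory mRNAs, stood at 0.24, and its relative Zfp36l2 at −2.98. Cyr61 and the kinase Plk2 stood at −3.34 and −3.32. Gadd45a, a DNA damage and stress gene, was the 1 higher, with 90.6 CPM in the section labelled knockout and 24.1 CPM in the section labelled wild type, at 1.91 (1.81 to 2.01).

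Genes upstream in the pathway were mostly within 2-fold, as were most of the 14516 genes. Of 25 MAP kinase cascade genes and ternary complex factors, 3 were at least 2-fold lower and 2 higher, beside 19.7% and 15.7% of all genes, with a median of −0.10 that becomes 0.09 when scaled by the median of ratios. Mapk3, which encodes ERK1, stood at 1.20 and the p38 family gene Mapk13 at 1.18. Map3k8, an inflammatory MAP3 kinase, had 0.836 CPM (75 counts) in the section labelled knockout and 15.7 CPM (627 counts) in the section labelled wild type, at −4.24. Of 20 heat shock genes, 1 was at least 2-fold lower, Hspb1 at −1.45, and none was higher, with a median of −0.26. The constitutive chaperone Hspa8 stood at −0.20. Of 20 integrated stress response genes, 10 were at least 2-fold lower and 2 higher, with a median of −0.58. The 2 were Trib3 at 1.63 and Ddit3, the CHOP gene, at 1.39. Cebpb had 99.7 CPM in the section labelled knockout and 503 CPM in the section labelled wild type, at −2.33 (−2.37 to −2.30).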

How the data were processed

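Per the labels, 10 µm frozen sections were placed on barcoded arrays, spots under tissue were kept with BSTMatrix and BSTViewer, and libraries were sequenced as paired reads. The deposited values are counts per gene and barcode, whole numbers with no normalisation. The build is GRCm38 per the submitters' processing notes, and neither an aligner nor a step that collapses molecular identifiers is named. Features with the same symbol were added.

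Counts were summed per section or per set of squares and given as CPM. Levels carry exact Poisson intervals and ratios exact conditional binomial (Clopper-Pearson) intervals, at 95%, for counting error only, since reads need not be independent molecules. There is 1 section per genotype, so no test was made, and squares were not used as replicates. Squares had sides of 20 position units, whose length is not given, and at least 10 barcodes. A list was used in a section where its top 10% of squares had a median of 20 or more marker counts, lowered from 50 after levels were seen so that neutrophil squares are included. This left 16 of 21 lists in the section labelled knockout and 14 of 21 in the section labelled wild type. In the latter the lowering also let in endothelial (median 22), stem cell (24), enterocyte (45) and enteric neuron and glia (45) squares. In the section labelled knockout it let in enteroendocrine (28), endothelial (28) and enteric neuron and glia (25) squares. Enterocyte, stem cell, endothelial and enteric neuron and glia squares could be compared between the sections only at the lowered minimum. Tiles had at least 200 barcodes. The squares for correlations had at least 50.

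The members and lists were chosen with earlier results of these data known. All members were named. From each further list, the rule took the 2 genes with most counts and up to 3 higher and 3 lower whose ratios were largest, given a minimum of 50 counts, of which some are printed. For likeness of pattern, it took the 5 genes with the highest Spearman correlation with the sum, leaving out predicted genes. Alternatives covered the scaling, the depth of barcodes, the size of squares and the marker threshold. The code for ratios and intervals was run on simulated Poisson counts, the same model that the intervals assume. That run says nothing of the spread between animals, sections or places. Python 3.11.15, NumPy 2.4.6, SciPy 1.17.1, pandas 2.3.3 and Matplotlib 3.10.9 were used.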

Additional observations from a re-analysis of the deposited data

How the results depend on the processing

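Each section is a single library, so none of the values below has an error between animals. The summed log2 ratio of −1.61 became −1.42 when scaled by the median of ratios, −1.71 without abundant markers in the totals, −1.64 in barcodes thinned to 500 counts and −1.79 with barcodes weighted equally. Thinning left out 14068 barcodes of the section labelled knockout and 12898 of the section labelled wild type. Jun was the member whose sign turned, at −0.018 without abundant markers, −0.018 after thinning and −0.070 with equal weights. Scaling by the median of ratios added 0.18 to each log2 ratio.

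The log2 range between the highest and lowest compartment was 1.48 in the section labelled knockout. It became 1.33 with squares of 40 units, 1.69 with the top 5%, 1.17 with the top 20% and 1.40 with 1 threshold for both sections. In the section labelled wild type it was 1.04, and became 1.23 with squares of 10 units, 0.65 with 40 units, 1.23 with the top 5%, 0.81 with the top 20% and 0.76 with 1 threshold. Villus tip squares labelled knockout and endothelial squares labelled wild type were highest in all 6 settings, the main one included, among lists that passed the marker minimum in their section. None of these settings returned to the earlier, higher minimum, which endothelial squares labelled wild type did not pass in the main setting. The lowest changed in the section labelled knockout, where it was stem cell squares, to proliferating squares with 10 units and to macrophage and dendritic squares with 1 threshold. In the section labelled wild type it was Paneth squares, and became enterocyte squares with 40 units and goblet squares with the top 5% and with 1 threshold. Between the sections, pan-epithelial squares gave −0.83, then −0.88 with 10 units, −0.88 with 40 units, −0.68 with the top 5% and −1.07 with the top 20%. The common threshold left 13 such squares labelled wild type and was not run. Smooth muscle squares gave −2.33, then −2.26 with 40 units, −2.16 with the top 20% and −2.45 with 1 threshold, which 23 squares labelled wild type passed. Collagen squares gave −2.28, then −2.34, −2.21 and −2.22 under the same settings. The causes were not tested.

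Chosen after seeing the data, leaving Paneth markers out of the totals turned the pan-epithelial value within the section labelled wild type from 0.071 to −0.038 and moved its Paneth value from −0.34 to −0.078. Taking deeper squares alone turned its enterocyte value from −0.081 to 0.017. No paired analysis was possible because there is 1 section per genotype.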

Other observations

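Single members had their own nearest patterns, a measure added after the rule for the sum was fixed. In the section labelled wild type, over 232 squares, Ier3 had Spearman correlations of 0.80 with Ptgs2, 0.76 with the neutrophil-attracting chemokine Cxcl2 and 0.74 with Ereg, an EGF-family ligand. Junb had 0.68 with Cebpb, and Egr1 had 0.55 with Mt1. Over 348 squares of the section labelled knockout, Klf4 had 0.91 with Enpp3 and with the surface keratin Krt20, and Junb had 0.86 with H2-K1, an MHC class I gene. For Ier3 the highest value in the section labelled knockout was 0.29, with Pdlim7, in squares where Ier3 was sparse.

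In 131 squares of the section labelled wild type rich in adipocyte markers, with a median of 9 marker counts and so under the minimum of 20, the members summed to 3473 CPM against 1979 CPM in other squares, above the value of the endothelial squares.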
